A study of Mus musculus with 21 samples.

Results

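Mouse lung fibroblasts that carry the surface proteins Ly6C and Sca-1 were given either TGFb1 or CHIR, and these single signals are compared here: 3 RNA-seq libraries labelled TGFb1 + DMSO against 3 labelled CHIR, out of 21 libraries in 7 groups of 3. Members were chosen by the treatment label alone. The TGFb1 + DMSO cells received the cytokine together with DMSO, a solvent, and the CHIR cells are labelled CHIR only, so whether they also received solvent is not given. The 3 DMSO libraries, from cells with solvent and no signal, give the level set beside most genes whose levels are printed. Where only the fold change between the signals is given, it does not show which signal left the DMSO level. For some genes, 3 libraries that received TGFb1 and CHIR together and 3 that received TGFb1 with no solvent on the label are shown too. The labels name neither dose, treatment time, mouse strain nor age, and do not say whether the 3 replicates of a group were separate cultures, so p-values measure only the spread between these libraries. The library names of the CHIR group are numbered apart from those of the other groups used here, so preparation and treatment cannot be told apart for CHIR.

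TGFb1 binds a pair of receptor kinases that phosphorylate SMAD2 and SMAD3, which enter the nucleus with SMAD4 and switch on genes for matrix, the contractile apparatus and feedback inhibitors. In lung fibroblasts it is the best known driver of the myofibroblast state. CHIR commonly stands for an inhibitor of GSK3, the kinase that marks beta-catenin for breakdown. Without that kinase, beta-catenin accumulates and, with TCF and LEF factors, switches on Wnt target genes such as Axin2.

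Library totals were 25767384 to 29276382 counts in TGFb1 + DMSO, 20575669 to 26926130 in CHIR and 23546115 to 28441137 in DMSO. Levels are given as CPM, each count scaled to the library total after TMM factors; they are not corrected for gene length and are compared only between groups, not between genes. The fibroblast label was checked against markers: all 12 fibroblast markers had counts in each of these groups, and their summed level was 61740 to 64403 CPM in TGFb1 + DMSO, 40623 to 44728 in CHIR and 39354 to 39556 in DMSO. Most of that sum was Col1a1, Col1a2 and Col3a1: between TGFb1 + DMSO and CHIR, 5 of the 12 were higher, 6 were lower and 1 did not pass, with decorin (Dcn) at 206 ± 9.43, 2982 ± 149.5 and 2013 ± 43 CPM in TGFb1 + DMSO, CHIR and DMSO, in that order, and Pdgfra at 444 ± 24.7, 1089 ± 23.7 and 1485 ± 17.6 CPM. Ptprc, the pan-leukocyte marker, was at 0 in every library of the 3 groups, and the 12 immune markers summed to at most 4.61 CPM. The 10 epithelial markers summed to at most 1.85 CPM, and the 10 endothelial ones to 8.66 to 14.2 CPM with Tie1 and Cldn5 at 0. The 6 mesothelial markers summed to 22.1 to 26.7 CPM in TGFb1 + DMSO, 8.64 to 9.93 in CHIR and 13.3 to 16.7 in DMSO, nearly all of it Wt1, while Msln was at 0. The 10 mural cell markers, of which Pdgfrb is shared with fibroblasts and makes up most of the sum, added up to 1103 to 1212, 1269 to 1303 and 1000 to 1072 CPM. Of the 7 mural markers tested, 3 were higher in TGFb1 + DMSO than in CHIR, 3 were lower and 1 did not pass. Cspg4 stood at 99.5 ± 5.07, 7.24 ± 0.804 and 7.48 ± 1.74 CPM, Mcam at 17.2 ± 0.958, 4.59 ± 0.57 and 7.33 ± 0.529 CPM and Rgs5 at 0.454 ± 0.192, 4.78 ± 0.0868 and 1.09 ± 0.155 CPM, in the same order of groups. Mitochondrially encoded genes took 0.349 to 0.467% of counts in TGFb1 + DMSO, 0.962 to 1.17% in CHIR and 0.561 to 0.591% in DMSO. In such bulk libraries, fewer cells of a type and less of an RNA per cell cannot be told apart.

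The signals left the cells far apart. With edgeR's quasi-likelihood test, 10697 of 16197 genes tested differed between TGFb1 + DMSO and CHIR at an adjusted p below 0.05 (66%), 5396 higher in TGFb1 + DMSO (33.3%) and 5301 lower (32.7%). At least 2-fold higher were 1882 genes (11.6%) and at least 2-fold lower 2337 (14.4%), 26% in all. For 11226 genes (69.3%), the 3 libraries of one group did not overlap the 3 of the other. The DMSO libraries lay nearer to CHIR: across genes, log2 CPM correlated at 0.9698 to 0.9719 between CHIR and DMSO libraries, at 0.9205 to 0.9285 between DMSO and TGFb1 + DMSO, and at 0.9112 to 0.9166 between CHIR and TGFb1 + DMSO, against 0.9874 to 0.9918 within groups. These are correlations across genes, which are not independent replicates. Against the same DMSO libraries, 10037 genes passed for TGFb1 + DMSO (62%; 30.7% higher, 31.3% lower) and 7260 for CHIR (44.8%; 22.1% higher, 22.7% lower). At least 2-fold from DMSO were 3531 (21.8%; 8.07% higher, 13.7% lower) and 1422 (8.78%; 2.69% higher, 6.09% lower). A value in parentheses after a gene is its log2 fold change ± SE, positive where TGFb1 + DMSO was higher than CHIR unless another comparison is named. Sets of 3 levels given as mean ± SD are those of TGFb1 + DMSO, CHIR and DMSO, in that order (n = 3 each).

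The genes that stood highest in TGFb1 + DMSO were mostly near 0 in both other groups. These genes, and those highest in CHIR below, were picked for a large difference with no overlap between TGFb1 + DMSO and CHIR. That separation is thus not a further result, unlike the place of DMSO. Anxa8, an annexin that binds membranes (ENSMUSG00000021950, chromosome 14, 34085981 to 34100571, GRCm38), read 67.8, 79.7 and 74.3 CPM in the TGFb1 + DMSO libraries, 0 in all 3 CHIR libraries and 0, 0.168 and 0 in DMSO. The level in TGFb1 + DMSO was at least 1822-fold higher than the 3 counts that a group at 0 allows. Acsbg1, an acyl-CoA synthetase, read 33.5, 36.7 and 33.1 CPM in TGFb1 + DMSO, 0, 0.228 and 0 in CHIR and 0.34, 0.134 and 0 in DMSO (8.64 ± 0.24, adjusted p = 1.95e-24). C1qtnf3, a secreted protein of the adiponectin family, read 91.5, 86.9 and 86.7 CPM in TGFb1 + DMSO, 1.08, 0.57 and 1.22 in CHIR and 1.56, 0.772 and 1.86 in DMSO (6.55 ± 0.15, adjusted p = 9.14e-23). Both were high with TGFb1 and low in the 6 other libraries.

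Of the same kind were Fgf21, a metabolic hormone (6.22 ± 0.30), Klhl30 (6.04 ± 0.22), the serotonin receptor Htr2b (5.59 ± 0.21), the receptors Gpr35 (5.52 ± 0.20) and Gpr141 (4.93 ± 0.19), and the scavenger receptor Stab1 (4.95 ± 0.15). Each stood below 1 CPM on average in CHIR and in DMSO. Slc16a3, the lactate exporter MCT4, read 103, 108 and 104 CPM in TGFb1 + DMSO, 2.12, 1.71 and 2.19 in CHIR and 4.01, 3.42 and 4.38 in DMSO (5.71 ± 0.089). A different pattern was seen for Il6, Mybl2 and Col8a1, which DMSO cells expressed and which were lower with CHIR, Il6 and Mybl2 to below 1 CPM and Col8a1 to 9.22 ± 0.396 CPM. Il6, an inflammatory cytokine (ENSMUSG00000025746, chromosome 5, 30013114 to 30019981), read 32, 34.6 and 28.8 CPM in TGFb1 + DMSO, 0.112, 0.228 and 0.146 in CHIR and 11, 9.84 and 9.08 in DMSO (7.57 ± 0.20, adjusted p = 1.83e-34). All 3 CHIR libraries lay below every DMSO library, and all 3 TGFb1 + DMSO libraries above.

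Among genes that stood highest in CHIR relative to TGFb1 + DMSO, the DMSO level was most often close to that of CHIR. Tnxb, the matrix glycoprotein tenascin X (ENSMUSG00000033327, chromosome 17, 34670535 to 34719815), read 4.19, 3.82 and 3.69 CPM in TGFb1 + DMSO, 801, 787 and 833 in CHIR and 665, 617 and 605 in DMSO (-7.69 ± 0.17, adjusted p = 5.62e-16). Selenop, a secreted selenium carrier, read 54.4, 53.7 and 53.9 CPM in TGFb1 + DMSO, 4708, 4817 and 4782 in CHIR and 3875, 4003 and 3872 in DMSO (-6.46 ± 0.078). The CHIR and DMSO libraries of both genes stood far above all TGFb1 + DMSO libraries. Abi3bp, a matrix protein, had 2.18 ± 0.541, 377 ± 19.5 and 212 ± 15 CPM (-7.44 ± 0.13), and Atp1b1, a sodium pump subunit, 1.74 ± 0.551, 215 ± 2.41 and 154 ± 10.5 CPM (-6.93 ± 0.10).

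The secreted matrix protein Fbln7 (-5.64 ± 0.061), the angiotensin converting enzyme gene Ace (-5.44 ± 0.12), the glycine-cleaving enzyme gene Gldc (-5.44 ± 0.19), the activin subunit Inhbb (-5.33 ± 0.11), the lipid transporter Abca9 (-5.11 ± 0.12) and the glucuronosyltransferase Ugt1a7c (-5.0 ± 0.18) were also lower in TGFb1 + DMSO. In that order, DMSO stood at 376, 170, 55.5, 95.2, 66.8 and 28.4 CPM, beside 481, 258, 68.8, 155, 83.1 and 59.5 in CHIR. Ugt1a7c shares its last exons with other genes of its locus, so its counts are uncertain. Enpp2, the secreted enzyme autotaxin that makes lysophosphatidic acid (ENSMUSG00000022425, chromosome 15, 54838901 to 54952892), stood furthest above DMSO with CHIR among these genes (3.63-fold). It read 22.7, 22.5 and 27.4 CPM in TGFb1 + DMSO, 2870.3, 2908 and 2504 in CHIR and 880.4, 692 and 711 in DMSO (-6.83 ± 0.11, adjusted p = 1.74e-18), with DMSO between the 2 treatments in every library.

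**Figure D1:**
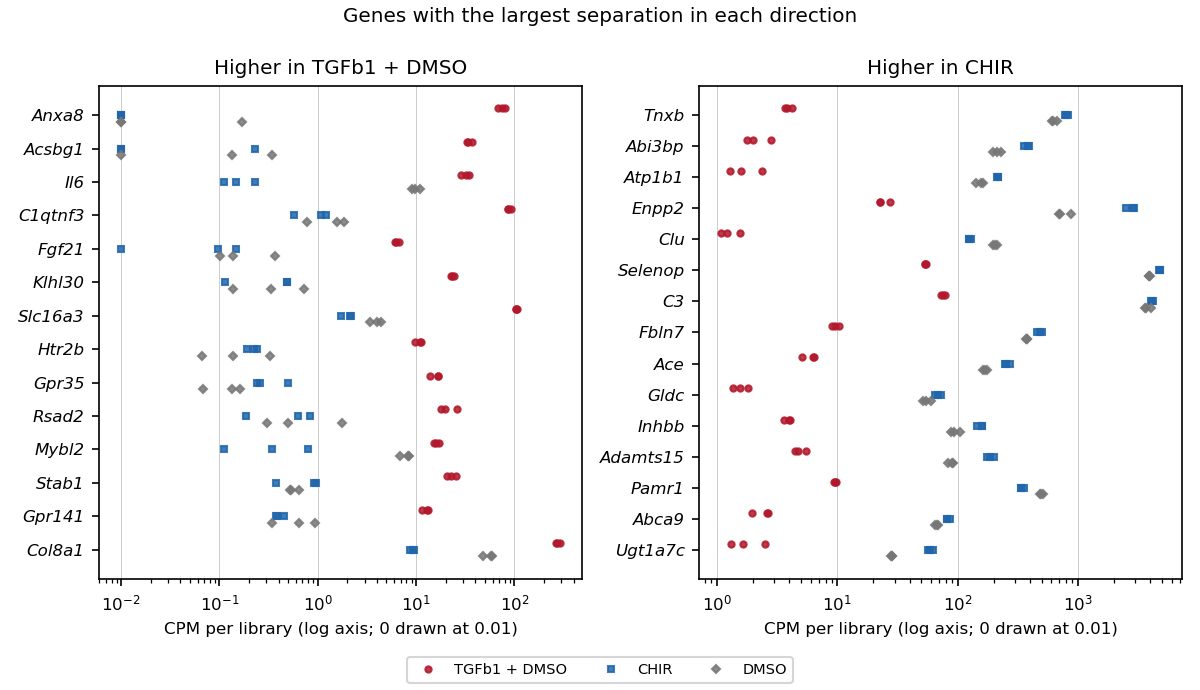
CPM of genes with the largest log2 fold change (left, 14 genes higher with TGFb1; right, 15 genes higher with CHIR) between TGFb1 + DMSO and CHIR, 1 point per library on a log axis, with DMSO beside them; a value of 0 is drawn at 0.01. In the left panel DMSO mostly lies with CHIR near or below 1 CPM, except for Il6, Mybl2, Slc16a3 and Col8a1, and in the right panel DMSO lies beside CHIR for most genes.

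The direct reporters of TGFb signalling separated the groups. Of 19 TGFb and SMAD target genes tested, 13 were higher in TGFb1 + DMSO, 4 were lower and 2 did not pass, with a median log2 fold change of 1.32 beside 0.00 over all genes tested. Ccn2, the matricellular connective tissue growth factor (ENSMUSG00000019997, chromosome 10, 24595442 to 24598683), read 1038, 1183 and 1117 CPM in TGFb1 + DMSO, 69.2, 75.3 and 76 in CHIR and 84.5, 101 and 97 in DMSO (3.92 ± 0.07, adjusted p = 6.45e-24). The groups did not overlap, and the CHIR libraries lay below the DMSO libraries.

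Ccn1, a relative of Ccn2, stood at 514 ± 25, 53.6 ± 5.03 and 1169.9 ± 29.4 CPM (3.26 ± 0.052): it was higher with TGFb1 than with CHIR, yet both treatments lay below DMSO. Il11, a cytokine that acts on fibroblasts, stood at 4.76 ± 0.348, 0.195 ± 0.105 and 0.165 ± 0.139 CPM (4.61 ± 0.31). Nox4, an NADPH oxidase, stood at 42.5 ± 3.3, 4.61 ± 0.397 and 7.35 ± 0.532 CPM (3.20 ± 0.11). Feedback inhibitors of the pathway were higher too, with Smad7 reading 68.5, 64.9 and 73.1 CPM in TGFb1 + DMSO, 31.6, 31.7 and 35.8 in CHIR and 42.7, 42.1 and 40.9 in DMSO (1.06 ± 0.065, adjusted p = 2.13e-20), Skil at 2.27 ± 0.05 and Pmepa1 at 2.89 ± 0.04. Skil and Pmepa1 also rose with CHIR against DMSO (0.78 ± 0.055 and 0.65 ± 0.04), while Smad7 fell (-0.35 ± 0.066). The 4 lower were Hmga2, a chromatin protein (-1.69 ± 0.11), Tgif1, Ltbp2 and Prss23.

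Ligands, receptors and SMADs were less one-sided: of 20 tested, 12 were higher in TGFb1 + DMSO, 6 were lower and 2 did not pass (median 0.23). Among the ligand genes of the list, Inhba, an activin subunit, was higher with TGFb1 at 223 ± 1.3, 41.6 ± 4.37 and 59.1 ± 5.19 CPM (2.43 ± 0.058), as were Tgfb3 (0.92 ± 0.048) and Tgfb1 itself (0.87 ± 0.046). The other activin subunit described above, Inhbb, is not in the list and was lower (-5.33 ± 0.11). Genes for proteins that hold latent TGFb were split: Lrrc32, on the cell surface, was higher (1.13 ± 0.045), and Ltbp1, in the matrix, was lower at 81.7 ± 3.76, 254 ± 9.72 and 135 ± 4.82 CPM (-1.64 ± 0.052). Components that receive and carry the signal were split. The co-receptor Tgfbr3 had 71.5 ± 7.94, 457 ± 16.9 and 471 ± 7.46 CPM (-2.68 ± 0.063), the signalling SMAD gene Smad3 86.1 ± 5.44, 272 ± 5.68 and 237 ± 5.84 CPM (-1.66 ± 0.051) and the type I receptor Tgfbr1 82.2 ± 3.08, 213 ± 14.2 and 97.5 ± 4.59 CPM (-1.37 ± 0.055), whereas the type II receptor Tgfbr2 was higher with TGFb1 (0.58 ± 0.04). Tgfbr1 and Ltbp1 were higher with CHIR than in DMSO (1.13 ± 0.054 and 0.91 ± 0.05), while Smad3 and Tgfbr3 stood apart from DMSO mainly with TGFb1 (-1.46 ± 0.051 and -2.72 ± 0.063).

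Genes of the related BMP branch went the other way. Of 17 ID family and BMP pathway genes tested, 13 were lower in TGFb1 + DMSO, 3 were higher and 1 did not pass (median -1.75). Id1, an inhibitor of helix-loop-helix factors and a standard BMP readout, read 5.51, 6.44 and 3.69 CPM in TGFb1 + DMSO, 49.2, 43.6 and 55.5 in CHIR and 93.1, 80.1 and 71.1 in DMSO (-3.24 ± 0.20, adjusted p = 2.46e-10). The 3 groups did not overlap, and both treatments lay below DMSO. Id2 (-3.56 ± 0.081), Id4 (-3.41 ± 0.12), the transcription factor gene Atoh8 (-3.74 ± 0.12) and Smad9, which carries BMP signals (-2.93 ± 0.12), were also lower with TGFb1. Their DMSO levels were, in that order, 95.3, 51.1, 40 and 23.7 CPM, beside 124, 48.2, 57.1 and 39.7 in CHIR. Grem1, a secreted BMP antagonist, had 1252 ± 84.2, 4516 ± 292 and 1749 ± 10.6 CPM (-1.85 ± 0.053), the CHIR level being 2.58-fold that of DMSO.

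CHIR raised the best known Wnt reporter, but many listed Wnt targets were higher with TGFb1 than with CHIR. Axin2, a negative regulator of beta-catenin (ENSMUSG00000000142, chromosome 11, 108920349 to 108950783), read 5.67, 5.04 and 5.19 CPM in TGFb1 + DMSO, 18.9, 17.9 and 19 in CHIR and 4.69, 4.13 and 6.16 in DMSO (-1.81 ± 0.12, adjusted p = 8.71e-19). The CHIR libraries stood above all others, and TGFb1 + DMSO was not separated from DMSO (0.10 ± 0.14, adjusted p = 0.567). Notum, a secreted Wnt deacylase, read 1.82, 0.273 and 0.439 CPM in TGFb1 + DMSO, 6.97, 4.91 and 4.72 in CHIR and 2.82, 1.75 and 1.86 in DMSO (-2.75 ± 0.36), again with CHIR above the other 6 libraries. Over the list of 22 Wnt and beta-catenin targets tested, 12 were higher in TGFb1 + DMSO, 8 were lower and 2 did not pass (median 0.73). Against DMSO, 11 were higher, 5 lower and 6 did not pass with CHIR (median 0.27). With TGFb1 + DMSO against DMSO, 10 were higher, 8 lower and 4 did not pass (median 0.14).

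Lef1, a partner of beta-catenin on DNA (ENSMUSG00000027985, chromosome 3, 131110471 to 131224356), read 8.42, 8.21 and 11.5 CPM in TGFb1 + DMSO, 6, 5.55 and 5.8 in CHIR and 1.7, 1.51 and 1.22 in DMSO (0.70 ± 0.12, adjusted p = 2.86e-06). It was above DMSO with either signal, and more so with TGFb1. Its relative Tcf7 had 8.53 ± 0.305, 4.84 ± 0.963 and 2.67 ± 0.465 CPM (0.83 ± 0.14). Lgr5 and Lgr6 encode receptors for R-spondins, which strengthen Wnt signals. Lgr5 read 11.3, 10.8 and 9.22 CPM in TGFb1 + DMSO, 0.0745, 0.038 and 0.195 in CHIR and 0, 0.369 and 0 in DMSO (6.71 ± 0.37, adjusted p = 1.04e-15), and Lgr6 read 25.5, 25.6 and 25.2 CPM in TGFb1 + DMSO, 3.46, 1.83 and 1.95 in CHIR and 0.408, 0.873 and 0.446 in DMSO (3.37 ± 0.14, adjusted p = 1.51e-21). The TGFb1 + DMSO libraries of both genes lay above all others. Ccn4, a secreted matricellular protein, had 1099 ± 14.7, 143 ± 3.87 and 105 ± 4.73 CPM (2.95 ± 0.041). Lower with TGFb1 were Tnfrsf19 (-2.80 ± 0.20), the Wnt inhibitor Apcdd1 (-1.89 ± 0.10), Bambi (-1.36 ± 0.13) and Tcf7l2 (-1.05 ± 0.082).

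Upstream of beta-catenin, 17 of 29 Wnt ligands, receptors and antagonists tested were lower in TGFb1 + DMSO, 8 were higher and 4 did not pass (median -0.71). Ligand genes were among those higher: Wnt11 had 17.5 ± 1.04, 1.47 ± 0.206 and 0.766 ± 0.395 CPM (3.59 ± 0.15), Wnt9a 19.3 ± 0.473, 1.99 ± 0.188 and 3.79 ± 0.964 CPM (3.27 ± 0.13) and Wnt10b 2.29 ± 0.33, 0.121 ± 0.0976 and 0.124 ± 0.0702 CPM (4.18 ± 0.50). Wnt7b stood at 2.06 ± 0.613 CPM in TGFb1 + DMSO and at 0 in all CHIR and DMSO libraries, at least 50.04-fold higher than CHIR. Secreted antagonists were lower. Sfrp2 read 0.427, 0.409 and 0.622 CPM in TGFb1 + DMSO, 111, 113 and 104 in CHIR and 115, 119.6 and 117 in DMSO (-7.80 ± 0.17, adjusted p = 8.1e-27), with CHIR just below DMSO and TGFb1 + DMSO far below both. Sfrp4 (-4.53 ± 0.14), Sfrp1 (-2.86 ± 0.10), Frzb (-1.98 ± 0.15) and Dkk3 (-1.56 ± 0.047) were also lower, as were the receptor genes Fzd1 (-1.73 ± 0.047) and Lrp6 (-1.72 ± 0.044), while the receptor gene Fzd6 was higher (1.90 ± 0.082).

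In cells given both signals, the level of the reporters depended on the gene. Ccn2 stood at 312 ± 14.9 CPM in TGFb1 + CHIR, between its levels under the single signals. Axin2 stood at 70.8 ± 1 CPM, Lef1 at 27.6 ± 0.697, Tcf7 at 45.9 ± 1.52 and Lgr5 at 68.5 ± 3.79, each above both single signals in all 3 libraries. Lgr6, in contrast, stood at 4.05 ± 0.692 CPM, well below TGFb1 + DMSO. Id1 stood at 5.86 ± 1.63 CPM, overlapping TGFb1 + DMSO.

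**Figure D2:**
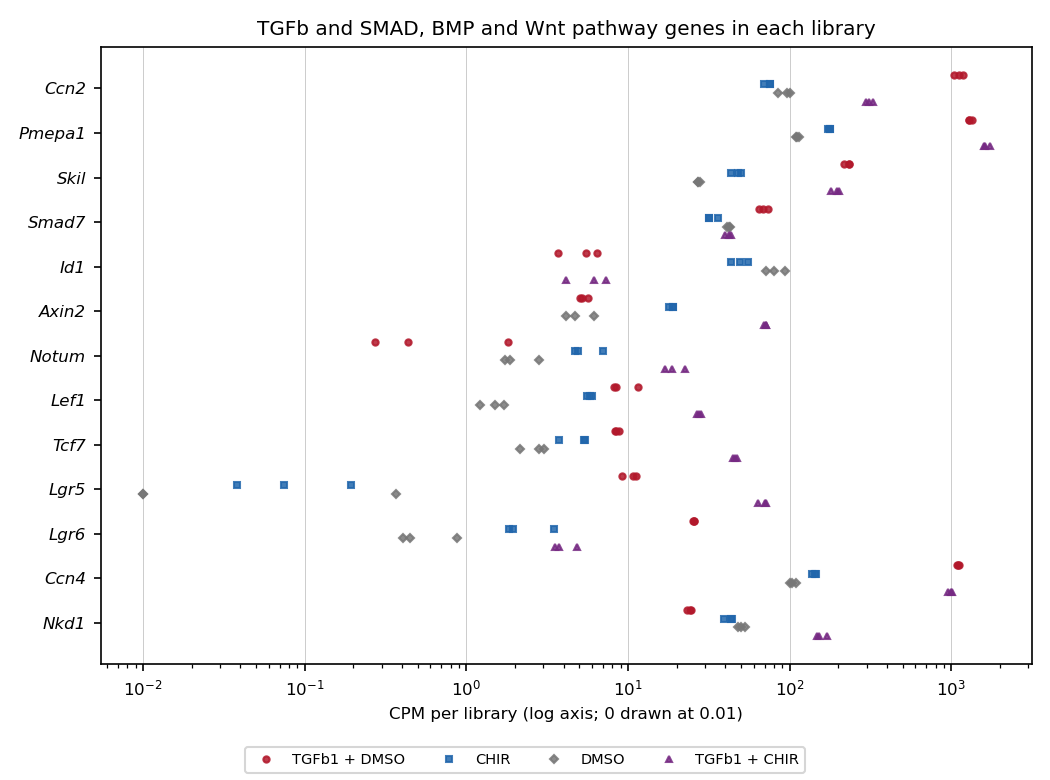
CPM of 13 TGFb, BMP and Wnt pathway genes, 1 point per library on a log axis (0 drawn at 0.01), for TGFb1 + DMSO, CHIR, DMSO and TGFb1 + CHIR. Axin2 and Notum stand higher in CHIR than in TGFb1 + DMSO, Lgr5, Lgr6 and Ccn4 stand higher in TGFb1 + DMSO, and for Axin2, Lef1, Tcf7 and Lgr5 the libraries with both signals are the highest.

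Cell division genes lay on opposite sides of DMSO. All 32 cell cycle and replication genes tested were higher in TGFb1 + DMSO than in CHIR, with a median of 3.20. Against the shared DMSO libraries, 31 were higher with TGFb1 and 1, the licensing factor Cdt1, did not pass (median 0.93), while all 32 were lower with CHIR (median -2.32). Most of the distance between the signals thus lay below the DMSO level. Mki67, the proliferation marker Ki-67 (ENSMUSG00000031004, chromosome 7, 135689784 to 135716361), read 438, 384 and 402 CPM in TGFb1 + DMSO, 28, 24.4 and 25.8 in CHIR and 193, 207 and 232 in DMSO (3.97 ± 0.10, adjusted p = 1e-15). Bub1, a mitotic checkpoint kinase, read 86.3, 76.5 and 79.7 CPM in TGFb1 + DMSO, 3.84, 3.08 and 3.94 in CHIR and 22.5, 25.2 and 30.6 in DMSO (4.49 ± 0.10), and Plk1, a kinase of mitotic entry, read 57.7, 49.9 and 54.4 CPM in TGFb1 + DMSO, 2.91, 2.24 and 3.31 in CHIR and 19.5, 24.3 and 25.1 in DMSO (4.27 ± 0.10). In all 3 genes DMSO lay between the treatments with no overlap.

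The cyclin B gene Ccnb1 had 10.1 ± 0.956, 0.499 ± 0.237 and 4.76 ± 0.163 CPM (4.32 ± 0.21, adjusted p = 4.12e-24), the ribonucleotide reductase subunit Rrm2 47.8 ± 2.88, 2.23 ± 0.249 and 18.9 ± 1.23 CPM (4.41 ± 0.10) and the mitotic kinase gene Aurka 73.2 ± 1.86, 4.68 ± 0.805 and 25 ± 0.456 CPM (3.98 ± 0.079). The smallest differences were those of the replication licensing genes Cdt1 (0.56 ± 0.091), Mcm4 (0.87 ± 0.053) and Mcm7 (1.01 ± 0.086), although Mcm5 of the same complex was at 3.41 ± 0.082. Mybl2, a transcription factor of dividing cells, had 16.2 ± 1.08, 0.417 ± 0.35 and 7.87 ± 0.855 CPM (5.25 ± 0.21).

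Genes that gate entry to the cycle were mixed, with 8 of 15 D cyclins, CDKs and CDK inhibitors higher in TGFb1 + DMSO, 6 lower and 1 not passing (median 0.31). Ccnd1, cyclin D1 and a listed Wnt target, read 47.5, 53.5 and 54.4 CPM in TGFb1 + DMSO, 22.3, 20.2 and 19.1 in CHIR and 75.5, 91.5 and 97.4 in DMSO (1.33 ± 0.082, adjusted p = 1.3e-16), so that both treatments lay below DMSO and CHIR the further. The CDK inhibitor gene Cdkn1a rose with both signals, at 44.4 ± 4.65, 29.5 ± 0.462 and 13.3 ± 1.1 CPM (0.59 ± 0.069). Its relative Cdkn1c fell with both, at 0.393 ± 0.18, 6.1 ± 0.962 and 13.5 ± 0.713 CPM (-3.92 ± 0.30), and was lowest with TGFb1.

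Promoters of the cell cycle genes are shown because the whole list moved together. RefSeq promoter windows of GRCm38.p6, from 250 bases before to 50 after the transcript start, were matched for 26 of the 32 genes (27 windows), and were searched on both strands for CCAAT, the box bound by NF-Y, and for TTTGAA, the core of the cell cycle homology region, whose letters overlap CTTTGAA of TCF and LEF factors. The CCAAT box was in 77.8% of these windows and in 37.4% of all 32851 windows, and TTTGAA in 37% and 17.9%. Other motifs searched were the TCF and LEF motif (11.1% and 8.65%), the SMAD motif (3.7% and 21%) and the AP-1 motif (0% and 7.81%). They also included TGACG of the cyclic AMP response element (29.6% and 20.8%) and the CArG box of serum response factor (3.7% and 1.63%). A match describes the letters only. The windows of Bub1 (chr2:127831810-127832109, minus strand) and Plk1 (chr7:122159185-122159484, plus strand) are printed in transcript direction, with CCAAT or its reverse complement in capitals.
Bub1: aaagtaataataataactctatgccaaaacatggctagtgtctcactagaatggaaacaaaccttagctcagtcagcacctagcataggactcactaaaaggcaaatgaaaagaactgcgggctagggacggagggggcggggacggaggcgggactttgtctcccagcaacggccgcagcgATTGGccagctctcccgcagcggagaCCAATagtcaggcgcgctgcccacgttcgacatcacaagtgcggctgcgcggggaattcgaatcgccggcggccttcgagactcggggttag
Plk1: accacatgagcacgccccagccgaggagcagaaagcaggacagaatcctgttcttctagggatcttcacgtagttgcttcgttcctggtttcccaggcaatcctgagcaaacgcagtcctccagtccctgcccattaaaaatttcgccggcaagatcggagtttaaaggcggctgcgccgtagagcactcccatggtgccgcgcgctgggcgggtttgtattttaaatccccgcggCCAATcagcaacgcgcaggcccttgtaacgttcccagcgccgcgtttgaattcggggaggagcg

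Immediate early genes, which growth factors and stress switch on within minutes, stood highest in DMSO. Of 23 tested, 20 were higher in TGFb1 + DMSO than in CHIR, 2 were lower and 1 did not pass (median 0.67). Against DMSO, 19 were lower and 2 higher with TGFb1 (median -1.71), and 22 were lower and 0 higher with CHIR (median -2.15), while 2 and 1 did not pass. Fos, an AP-1 subunit (ENSMUSG00000021250, chromosome 12, 85473890 to 85477273), read 166, 135 and 118 CPM in TGFb1 + DMSO, 8.42, 6.96 and 6.96 in CHIR and 1644, 1475 and 1431 in DMSO (4.22 ± 0.22, adjusted p = 5.91e-11). Its partner gene Fosb (ENSMUSG00000003545, chromosome 7, 19302696 to 19310051) read 26.7, 20.9 and 18.2 CPM in TGFb1 + DMSO, 2.35, 2.09 and 2.34 in CHIR and 657, 512 and 459.6 in DMSO (3.28 ± 0.27, adjusted p = 1.87e-08). Egr1, a zinc finger factor, read 969, 835 and 774 CPM in TGFb1 + DMSO, 107, 109 and 106 in CHIR and 2971, 2792 and 2677 in DMSO (3.0 ± 0.11, adjusted p = 6.7e-13). In all 3 genes the order was DMSO, then TGFb1 + DMSO, then CHIR, with no overlap.

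Zfp36, which speeds mRNA decay, fell steeply with both signals and was separated little between them, at 51.6 ± 4.42, 35 ± 2.04 and 1422 ± 162 CPM (0.56 ± 0.13). Junb (2.99 ± 0.10), Ier3 (2.48 ± 0.10) and Ier2 (2.17 ± 0.12) were separated more. Egr2 and Ier3 were the members that rose with TGFb1 (0.50 ± 0.058 and 0.44 ± 0.086). The nuclear receptor gene Nr4a3 (-2.0 ± 0.21) and Egr3 (-0.78 ± 0.12) were the members higher in CHIR, and Klf2 did not pass (0.29 ± 0.14, adjusted p = 0.0613).

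RefSeq windows were matched for 20 of the 24 listed immediate early genes (24 windows). TGACG, the core of the cyclic AMP response element, was in 62.5% of them and in 20.8% of all windows. The CArG box bound by serum response factor was in 20.8% and 1.63%. Of the other motifs searched, that of TCF and LEF was in 4.17% and 8.65%, and that of SMAD in 20.8% and 21%. The AP-1 motif was in 0% and 7.81%, CCAAT in 41.7% and 37.4%, and TTTGAA in 12.5% and 17.9%. The windows of Fos (chr12:85473640-85473939, plus strand) and Fosb (chr7:19309996-19310295, minus strand), the members furthest below DMSO with CHIR, are printed with TGACG in capitals.
Fos: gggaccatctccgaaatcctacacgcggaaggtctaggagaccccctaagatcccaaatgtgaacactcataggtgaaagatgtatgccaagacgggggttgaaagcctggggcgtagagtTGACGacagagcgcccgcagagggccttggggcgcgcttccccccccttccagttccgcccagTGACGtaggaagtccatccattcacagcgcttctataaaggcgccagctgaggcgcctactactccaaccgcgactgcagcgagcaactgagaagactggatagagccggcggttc
Fosb: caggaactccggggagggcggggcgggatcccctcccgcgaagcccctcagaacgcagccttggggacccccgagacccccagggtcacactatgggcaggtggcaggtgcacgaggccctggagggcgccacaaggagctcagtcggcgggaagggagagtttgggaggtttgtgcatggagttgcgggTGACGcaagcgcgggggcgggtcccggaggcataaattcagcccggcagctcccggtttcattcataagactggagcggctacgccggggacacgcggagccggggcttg

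**Figure D3:**
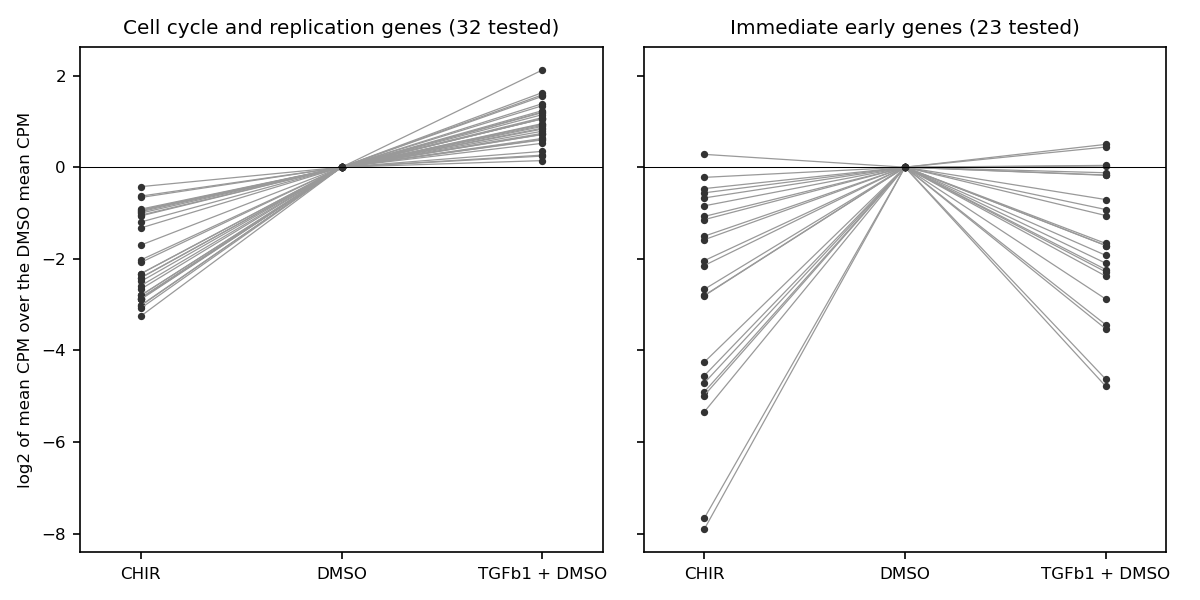
Mean CPM of each cell cycle and replication gene (left, 32 genes) and immediate early gene (right, 23 genes) in CHIR, DMSO and TGFb1 + DMSO, as log2 of the ratio to the DMSO mean; each line is 1 gene. Cell cycle genes rise from CHIR through DMSO to TGFb1 + DMSO, and immediate early genes mostly peak in DMSO.

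Innate defence genes expressed by the DMSO cells were far lower with TGFb1 than with CHIR. Of 16 acute phase and complement genes tested, 13 were lower in TGFb1 + DMSO, 1 was higher and 2 did not pass (median -3.59, or -3.37 with Lcn2, at 0 in TGFb1 + DMSO, set to its bound). C3, the central complement component (ENSMUSG00000024164, chromosome 17, 57203970 to 57228136), read 75.1, 79.2 and 72.5 CPM in TGFb1 + DMSO, 4185, 4118 and 4034 in CHIR and 4073, 3619 and 3670.3 in DMSO (-5.77 ± 0.06, adjusted p = 8e-40). Clu, the chaperone clusterin, read 1.09, 1.57 and 1.21 CPM in TGFb1 + DMSO, 130.5, 124 and 126 in CHIR and 213, 198 and 203 in DMSO (-6.61 ± 0.13). All TGFb1 + DMSO libraries lay far below the others, while the CHIR libraries overlapped DMSO for C3 and lay below it for Clu. Haptoglobin (Hp, -6.18 ± 0.24), Serpina3n (-5.68 ± 0.44), and the complement proteases C1ra (-3.66 ± 0.075) and C1s1 (-3.51 ± 0.053) were lower too. Ptx3, a pattern recognition protein, was the member higher in TGFb1 + DMSO, at 18.5 ± 1.82, 13.5 ± 0.559 and 64.3 ± 5.97 CPM (0.45 ± 0.10), with both treatments below DMSO.

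Chemokine genes were lower in TGFb1 + DMSO for 11 of 15 tested and higher for 3, and 1 did not pass (median -0.94). Cxcl13, which attracts B cells, was at 0 in all TGFb1 + DMSO libraries and at 5.83 ± 0.556 CPM in CHIR and 3.95 ± 0.825 in DMSO, at least 159-fold lower. Cx3cl1, a membrane-bound chemokine, had 51.4 ± 3.86, 246 ± 15.5 and 143 ± 4 CPM (-2.26 ± 0.06). Cxcl1, a neutrophil attractant, fell with both signals, at 1.1 ± 0.447, 2.82 ± 0.388 and 85.5 ± 6.52 CPM (-1.37 ± 0.32). The T cell attractants Cxcl10 (4.36 ± 0.29), Cxcl9 (2.18 ± 0.51) and Ccl5 (1.04 ± 0.27) were those higher with TGFb1.

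Cytokine and growth factor genes divided by name, with 13 of 29 higher in TGFb1 + DMSO, 12 lower and 4 not passing (median -0.43, or -0.13 with genes at 0 set to their bound). Higher with TGFb1 beside Il6 and Il11 were Lif, a cytokine of the same family (55 ± 4.02, 2.54 ± 0.143 and 11.8 ± 1.76 CPM, 4.44 ± 0.094), the platelet-derived growth factor genes Pdgfb (3.84 ± 0.14), Pdgfc (2.53 ± 0.063) and Pdgfa (2.40 ± 0.065), the epidermal growth factor receptor ligand Hbegf (3.75 ± 0.075) and the angiogenic factor Vegfa (829 ± 34.7, 159 ± 6.21 and 197 ± 4.21 CPM, 2.38 ± 0.041). Higher with CHIR were the lymphatic growth factor Vegfd (19 ± 0.562, 413 ± 6.94 and 1205 ± 9.59 CPM, -4.44 ± 0.072), the stem cell factor Kitl (-3.72 ± 0.14), the alarmin Il33 (-2.96 ± 0.27), and the epithelial growth factors Fgf7 (-2.72 ± 0.073) and Hgf (-1.44 ± 0.076). NF-kB subunits and feedback genes showed no common direction, with 7 of 19 higher, 8 lower and 4 not passing (median -0.14). Nfkbiz, a nuclear co-factor, was at 51.7 ± 4.71, 10.3 ± 0.716 and 115 ± 19.7 CPM (2.32 ± 0.10) and Nfkbia, the feedback inhibitor, at 32.4 ± 3.87, 59.4 ± 1.95 and 91 ± 3.89 CPM (-0.87 ± 0.072).

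Interferon-stimulated genes were higher in TGFb1 + DMSO for 28 of 30 tested and lower for 0, and 2, Ifit3b and Gbp3, did not pass (median 2.15). Rsad2, the antiviral enzyme viperin (ENSMUSG00000020641, chromosome 12, 26442746 to 26456452), read 26.1, 17.9 and 19.8 CPM in TGFb1 + DMSO, 0.186, 0.837 and 0.633 in CHIR and 0.306, 0.504 and 1.78 in DMSO (5.27 ± 0.53, adjusted p = 2.53e-07). Isg15, a ubiquitin-like modifier (ENSMUSG00000035692, chromosome 4, 156199424 to 156200818), read 28.6, 22.8 and 21.8 CPM in TGFb1 + DMSO, 0.969, 1.41 and 1.75 in CHIR and 2.21, 6.55 and 4.62 in DMSO (4.17 ± 0.36, adjusted p = 3.56e-08). The TGFb1 + DMSO libraries of both lay above all 6 others. Oasl1 (4.53 ± 0.28), Zbp1 (4.39 ± 0.47), Ifi44 (4.05 ± 0.43) and the transcription factor gene Irf7 (2.87 ± 0.41) were among the others, while Ifit2 was separated least of those that passed (0.33 ± 0.068). Oas1a and Oas3, which sense double-stranded RNA, were at 0 in CHIR and at least 21.1-fold and 11.6-fold higher in TGFb1 + DMSO.

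In TGFb1 libraries without the solvent label, Rsad2 stood at 11.5 ± 2.71 CPM and Isg15 at 17.1 ± 3.07 CPM, so the level depended on which TGFb1 group was taken; Axin2 stood there at 6.18 ± 0.89 CPM.

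**Figure D4:**
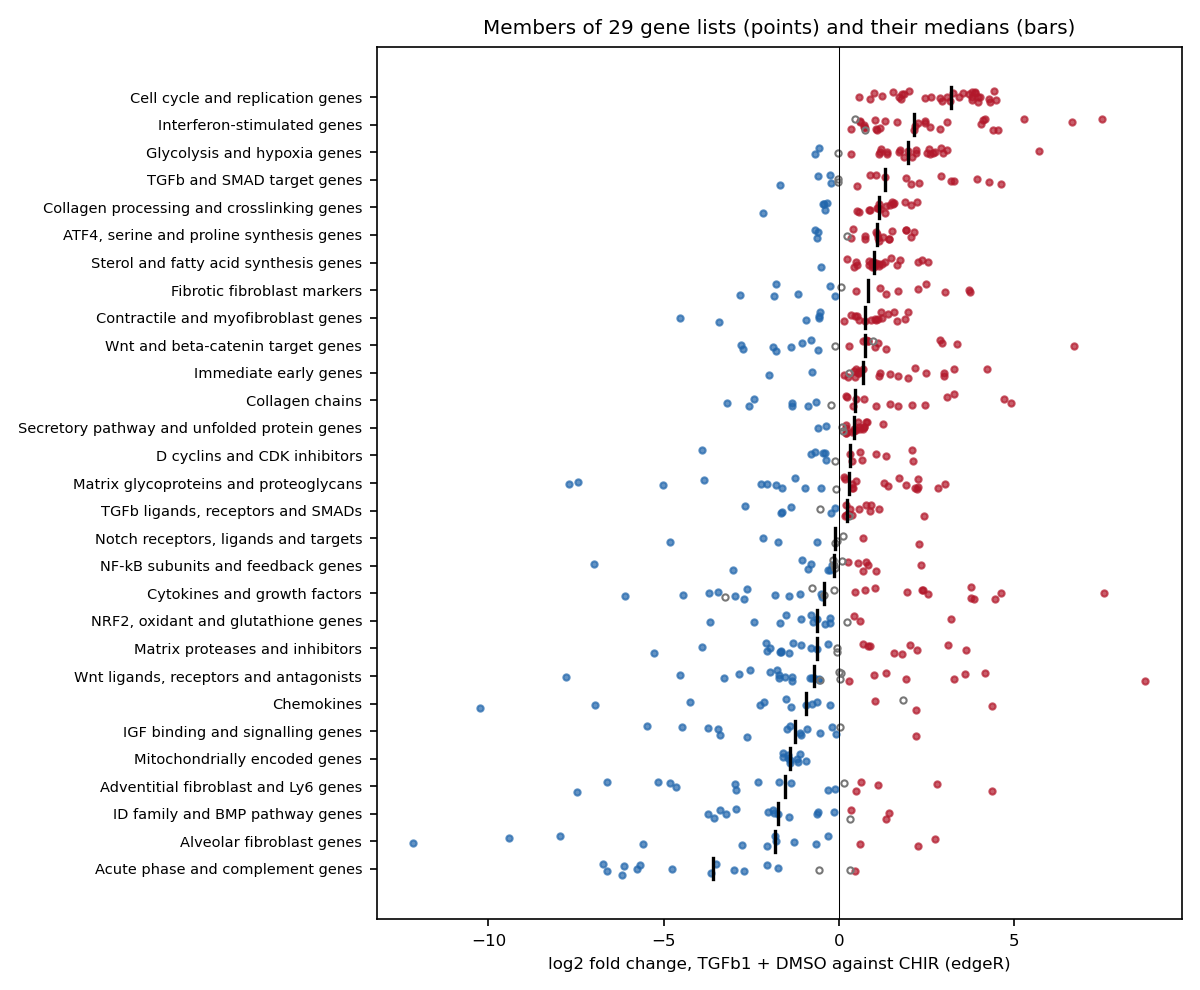
Log2 fold change of TGFb1 + DMSO against CHIR for each tested member of 29 gene lists, sorted by the list median (black bar); red and blue points passed an adjusted p of 0.05 in either direction and open points did not. Cell cycle, interferon-stimulated and glycolysis genes lie furthest to the right, and complement, alveolar fibroblast and BMP pathway genes furthest to the left.

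Fibrillar collagens were higher with TGFb1, and several other chains were higher with CHIR. Of 22 collagen chain genes tested, 14 were higher in TGFb1 + DMSO, 7 were lower and 1 did not pass (median 0.45). Col1a1, which encodes type I collagen (ENSMUSG00000001506, chromosome 11, 94936224 to 94953042), read 25772, 25121 and 25088 CPM in TGFb1 + DMSO, 15157, 14653 and 16343 in CHIR and 12399, 12665 and 12618 in DMSO (0.72 ± 0.037, adjusted p = 1.93e-22), and Col3a1 (1.06 ± 0.037), Col5a1 (1.68 ± 0.039), Col5a3 (2.46 ± 0.046) and Col11a1 (3.28 ± 0.064) lay in the same direction. The Col1a1 levels of the 3 groups did not overlap, with CHIR also above DMSO. The type IV chains of basement membranes were lower with TGFb1, with Col4a1 at -0.89 ± 0.041 and Col4a5 at -1.34 ± 0.045, and of the type VI chains Col6a1 (-2.43 ± 0.043) and Col6a2 (-2.57 ± 0.051) were lower and Col6a3 (0.40 ± 0.036) higher. Col15a1, of the basement membrane zone, read 29.7, 29.1 and 26.9 CPM in TGFb1 + DMSO, 274, 252 and 261 in CHIR and 39, 33.8 and 32.3 in DMSO (-3.20 ± 0.074), where the CHIR libraries stood far above the other 6. The short chain collagen genes Col8a1 (276 ± 14.2, 9.22 ± 0.396 and 54.9 ± 6.18 CPM, 4.90 ± 0.075) and Col8a2 (40.6 ± 4.49, 1.5 ± 0.583 and 0.55 ± 0.203 CPM, 4.72 ± 0.16) and the fibril-associated Col12a1 (3.07 ± 0.042) were also higher with TGFb1.

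Matrix glycoproteins and proteoglycans were higher in TGFb1 + DMSO for 16 of 28 tested, lower for 11, and 1 did not pass (median 0.27). Cthrc1, a marker of matrix-producing lung fibroblasts, read 36.9, 33.1 and 35.4 CPM in TGFb1 + DMSO, 3.69, 4.87 and 4.43 in CHIR and 4.08, 6.95 and 6.24 in DMSO (3.02 ± 0.11, adjusted p = 1.75e-28), and Postn, a matricellular protein, read 5154, 5093 and 5054 CPM in TGFb1 + DMSO, 3628, 3618 and 3639 in CHIR and 2505, 2423 and 2398 in DMSO (0.49 ± 0.035, adjusted p = 7.12e-18). The CHIR libraries overlapped DMSO for Cthrc1 and lay above all DMSO libraries for Postn. The microfibril genes Fbn1 (1.90 ± 0.039) and Mfap5 (2.81 ± 0.058), versican (Vcan, 2.16 ± 0.047), tenascin C (Tnc, 2.26 ± 0.08) and elastin (Eln, 1.40 ± 0.12) were higher with TGFb1. The small leucine-rich proteoglycan genes Dcn (206 ± 9.43, 2982 ± 149.5 and 2013 ± 43 CPM, -3.86 ± 0.045), Lum (-5.02 ± 0.24) and Ogn (-2.05 ± 0.074) were lower, and thrombospondin 1 was not separated (Thbs1, -0.08 ± 0.04, adjusted p = 0.0656).

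Enzymes that modify and crosslink collagen were mostly higher with TGFb1: 17 of 22 tested were higher and 5 lower (median 1.13). Lox, lysyl oxidase, had 4037 ± 204, 1088 ± 53.6 and 1966 ± 64.2 CPM (1.89 ± 0.055), Loxl2 1260.2 ± 25.1, 306 ± 3.46 and 282 ± 4.15 CPM (2.04 ± 0.039) and the prolyl hydroxylase subunit P4ha2 339 ± 13.2, 72.3 ± 3.57 and 84.8 ± 2.11 CPM (2.23 ± 0.045). Adamts2, which trims procollagen, was lower, at 308 ± 3.41, 1375 ± 44.2 and 1189 ± 26.1 CPM (-2.16 ± 0.039). Matrix proteases and inhibitors leaned towards CHIR, with 14 of 25 lower in TGFb1 + DMSO, 9 higher and 2 not passing (median -0.63). Mmp3, stromelysin, read 104, 85.4 and 86 CPM in TGFb1 + DMSO, 1419, 1359 and 1337 in CHIR and 687, 579 and 582 in DMSO (-3.90 ± 0.12, adjusted p = 6.89e-14), with the CHIR libraries above DMSO and the TGFb1 + DMSO libraries below. Adamts15 (4.89 ± 0.522, 188 ± 13.4 and 88 ± 4.51 CPM, -5.27 ± 0.11) and the gelatinase gene Mmp2 (1960.0 ± 15, 4131 ± 109 and 1760.4 ± 117 CPM, -1.08 ± 0.037) were also higher with CHIR. The inhibitor genes Timp3 (2343 ± 198, 272 ± 11.1 and 457 ± 28.2 CPM, 3.11 ± 0.094) and Timp1 (2.02 ± 0.046) were higher with TGFb1, unlike Timp2 (-1.65 ± 0.039). Mmp13, a collagenase, rose with both signals, at 89.1 ± 6.26, 25.9 ± 1.53 and 6.24 ± 0.34 CPM (1.78 ± 0.12).

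Contractile and myofibroblast genes were higher in TGFb1 + DMSO than in CHIR for 17 of 23 tested and lower for 6 (median 0.75). Against DMSO, 12 were higher, 9 lower and 2 did not pass with TGFb1 + DMSO (median 0.18). With CHIR against DMSO, 4 were higher, 16 lower and 3 did not pass (median -0.41). Acta2, smooth muscle actin and the usual myofibroblast marker (ENSMUSG00000035783, chromosome 19, 34241090 to 34255590), read 1705, 1869.6 and 1883 CPM in TGFb1 + DMSO, 624, 663 and 565 in CHIR and 1155, 1084 and 1102 in DMSO (1.56 ± 0.05, adjusted p = 2.74e-24). DMSO lay between the treatments in every library. Calponin (Cnn1, 1.89 ± 0.07), the fibronectin receptor subunit Itga5 (1.97 ± 0.036), Actg2 (1.64 ± 0.045) and transgelin (Tagln, 1.24 ± 0.072) were higher too. Mylk, myosin light chain kinase, had 12 ± 1.04, 128 ± 8.84 and 134 ± 0.321 CPM (-3.41 ± 0.13) and was lower with TGFb1 than in either other group. Smooth muscle myosin Myh11 had 0.29 ± 0.228, 6.88 ± 0.881 and 0.846 ± 0.503 CPM (-4.54 ± 0.46), the high level being in CHIR. Among mural cell markers, Cspg4 (3.79 ± 0.10) and Mcam (1.90 ± 0.12) were higher and Rgs5 (-3.37 ± 0.37) lower with TGFb1, and their part in the contractile genes was not tested. Of 16 fibrotic fibroblast markers tested, 9 were higher in TGFb1 + DMSO, 6 were lower and 1 did not pass (median 0.82). At least 2-fold higher were 8 and at least 2-fold lower 4. Among the lower was Pdlim3, at low levels in every group (0.0769 ± 0.103, 0.554 ± 0.137 and 0.825 ± 0.263 CPM, -2.82 ± 0.83). Lrrc15, a membrane protein of myofibroblasts, read 34, 27.1 and 28.8 CPM in TGFb1 + DMSO, 2.72, 2.02 and 2.09 in CHIR and 0.476, 0.235 and 0.243 in DMSO (3.70 ± 0.13, adjusted p = 4.36e-21), so that it rose with both and more with TGFb1, and osteopontin (Spp1) had 1824 ± 196, 138 ± 5.68 and 158 ± 3.32 CPM (3.72 ± 0.10).

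Markers of lung fibroblast subtypes were mostly lower with TGFb1. Of 14 alveolar fibroblast genes tested, 11 were lower and 3 higher (median -1.81). At least 2-fold lower were 9 and at least 2-fold higher 2, and the alveolar members named here are all among the lower. Ces1d, a lipid esterase, was at 0 in all TGFb1 + DMSO libraries, at 21.7 ± 1.24 CPM in CHIR and at 10.9 ± 0.976 in DMSO, at least 599.8-fold lower than CHIR. Itga8, an integrin subunit, had 0.373 ± 0.206, 17.8 ± 1.35 and 11.2 ± 1.85 CPM (-5.59 ± 0.28), and Pdgfra, a receptor for platelet-derived growth factor, 444 ± 24.7, 1089 ± 23.7 and 1485 ± 17.6 CPM (-1.29 ± 0.042). Of 18 adventitial fibroblast and Ly6 genes, 12 were lower, 5 higher and 1 did not pass (median -1.55). The ferritin receptor gene Scara5 had 1.32 ± 0.301, 132 ± 2.6 and 279 ± 7.27 CPM (-6.62 ± 0.12), the alcohol dehydrogenase gene Adh1 0.277 ± 0.0609, 50.3 ± 3.39 and 71.2 ± 1.94 CPM (-7.47 ± 0.25) and Pamr1 9.53 ± 0.206, 344 ± 8.93 and 496 ± 13.8 CPM (-5.17 ± 0.062). Pi16, in contrast, was higher with TGFb1 (2.80 ± 0.20), as was the chemokine scavenger Ackr3 (4.37 ± 0.14).

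The genes behind the sorting markers were low with both signals. Ly6a, which encodes Sca-1 (ENSMUSG00000075602, chromosome 15, 74994877 to 74998031), read 67.6, 70.5 and 61.6 CPM in TGFb1 + DMSO, 57.6, 59.1 and 65.2 in CHIR and 136, 146 and 143 in DMSO (0.14 ± 0.071, adjusted p = 0.0872). The treated groups overlapped and did not pass the test, with a 95% interval of -0.01 to 0.28, and all 6 libraries lay below DMSO. Against TGFb1 without the solvent label, CHIR was the lower (0.52 on the log2 scale, adjusted p = 2.74e-08), and it also was without TGFb1 + DMSO replicate 3 (0.21, adjusted p = 0.0179) or CHIR replicate 3 (0.19, adjusted p = 0.0277), with no filter on low counts (0.17, adjusted p = 0.0147) and with only the compared groups in the fit (0.14, adjusted p = 0.0378). Whether Ly6a separated the signals thus depended on the setting. Ly6c1, one of the genes for Ly6C, had 16.3 ± 1.47, 11.7 ± 1.39 and 49.8 ± 1.77 CPM (0.49 ± 0.10, adjusted p = 5.1e-05). It has a near-identical neighbour, Ly6c2, so its counts are uncertain.

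Most genes of energy and biosynthetic metabolism listed were higher with TGFb1. Of 25 glycolysis and hypoxia genes tested, 22 were higher in TGFb1 + DMSO, 2 were lower and 1 did not pass (median 1.96). Beside Slc16a3, Ldha, lactate dehydrogenase, had 425 ± 10.7, 93.6 ± 3.34 and 116 ± 3.58 CPM (2.18 ± 0.046). Pfkp, a phosphofructokinase, had 204 ± 16, 33.6 ± 2.93 and 46.6 ± 0.863 CPM (2.60 ± 0.055). Pdk1, a kinase of pyruvate dehydrogenase, had 209.7 ± 17.4, 31.2 ± 0.164 and 41.3 ± 4.51 CPM (2.75 ± 0.10). Adm, the hypoxia-induced peptide adrenomedullin, fell with both signals, at 8.73 ± 0.47, 14.2 ± 0.961 and 106 ± 2.04 CPM (-0.69 ± 0.12). Among 20 ATF4, serine and proline synthesis genes, 16 were higher, 3 lower and 1 did not pass (median 1.09). Mthfd2, of mitochondrial folate metabolism, had 207 ± 9.05, 47.3 ± 3.41 and 69 ± 0.883 CPM (2.13 ± 0.052) and Pycr1, of proline synthesis, 89.5 ± 2.12, 21.5 ± 1.4 and 27.8 ± 2.2 CPM (2.06 ± 0.063).

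Sterol and fatty acid synthesis genes were higher for 23 of 24 and lower for 1, Insig1 (median 0.99). Scd2, a fatty acid desaturase, read 4088, 3916 and 3878 CPM in TGFb1 + DMSO, 666, 705 and 666 in CHIR and 1049.9, 1036 and 1048 in DMSO (2.54 ± 0.04), with CHIR below DMSO. Secretory pathway and unfolded protein genes were higher for 17 of 21, lower for 2, and 2 did not pass (median 0.43). Only 1 was at least 2-fold higher, Sec23a of secretory vesicle coats (1.24 ± 0.044). The translocon subunit Sec61b (0.79 ± 0.12) and the chaperone Hspa5 (2187 ± 101, 1292 ± 40.4 and 1041 ± 35.3 CPM, 0.76 ± 0.041) were higher too. Against DMSO this list rose with both signals. With TGFb1 + DMSO 20 were higher and 0 lower (median 0.78), and with CHIR 14 were higher and 0 lower (median 0.34).

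Genes of insulin-like growth factor signalling were mostly higher with CHIR than with TGFb1. Of 16 tested, 14 were lower in TGFb1 + DMSO, 1 was higher and 1 did not pass (median -1.25). Against DMSO, 12 were lower, 2 higher and 2 did not pass with TGFb1 + DMSO (median -0.85). With CHIR against DMSO, 9 were higher, 3 lower and 4 did not pass (median 0.14). Igfbp5, which binds the growth factors (ENSMUSG00000026185, chromosome 1, 72857932 to 72874884), read 37.5, 32.3 and 39.5 CPM in TGFb1 + DMSO, 514, 505 and 450.1 in CHIR and 61.1, 55.5 and 59.2 in DMSO (-3.75 ± 0.12, adjusted p = 8.75e-14). Igf1 itself had 23.7 ± 1.45, 146 ± 11.1 and 42.9 ± 2.72 CPM (-2.63 ± 0.10). In both, CHIR stood above DMSO and TGFb1 + DMSO below it. Igf2, in contrast, fell with both signals, at 1.01 ± 0.637, 11.4 ± 1.02 and 56.7 ± 5.85 CPM (-3.47 ± 0.29). Stc1 had 6.7 ± 0.79, 70.2 ± 6.08 and 63.5 ± 7.04 CPM (-3.39 ± 0.10), where CHIR was not separated from DMSO (0.15 ± 0.081, adjusted p = 0.145). Pappa, a protease that frees the growth factors, was the member higher with TGFb1, at 118 ± 1.85, 25.9 ± 1.54 and 26.9 ± 4.94 CPM (2.19 ± 0.09).

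Of 15 NRF2, oxidant and glutathione genes, 11 were lower in TGFb1 + DMSO, 3 higher and 1 did not pass (median -0.62). The glutathione transferase genes Gsta4 (-3.68 ± 0.20) and Mgst1 (59.4 ± 1.5, 322 ± 7.19 and 243 ± 1.77 CPM, -2.44 ± 0.052) led, and Gclc, of glutathione synthesis, rose with CHIR (1.08 ± 0.056 against DMSO) and not detectably with TGFb1 (-0.02 ± 0.057), at 53.1 ± 0.719, 114 ± 1.19 and 53.8 ± 3.46 CPM (-1.10 ± 0.056). All 10 mitochondrially encoded genes tested were lower in TGFb1 + DMSO (median -1.40). Among them mt-Nd4 had 379 ± 46.4, 1155 ± 148 and 566 ± 40.3 CPM (-1.61 ± 0.14), and their share of each library was likewise highest in CHIR and lowest in TGFb1 + DMSO. Of 9 Notch genes tested, 2 were higher, 4 lower and 3 did not pass (median -0.11). The target gene Hes1 had 60.4 ± 5.31, 12.6 ± 2.32 and 76 ± 7.29 CPM (2.27 ± 0.17) and the receptor gene Notch1 10.8 ± 2.53, 48.5 ± 1.12 and 48.9 ± 6.16 CPM (-2.17 ± 0.10).

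Some genes were pushed to opposite sides of DMSO. Beside Col8a1, Lif and Isg15, those raised by TGFb1 and lowered by CHIR included Adcy1, an adenylyl cyclase, which read 215, 219 and 220.0 CPM in TGFb1 + DMSO, 13.7, 15.5 and 15.7 in CHIR and 48.1, 53.6 and 54.2 in DMSO (2.07 ± 0.054 with TGFb1 and -1.80 ± 0.065 with CHIR, each against DMSO). They also included the laminin-related netrin Ntn4 (2.29 ± 0.14 and -1.76 ± 0.20), the keratin Krt80 (1.74 ± 0.15 and -3.14 ± 0.25) and Tnfrsf11b, the RANKL decoy osteoprotegerin (2.12 ± 0.10 and -1.69 ± 0.15). In the other direction stood Enpp2 and Amot, an angiomotin that binds YAP, which read 33.4, 34.9 and 35.6 CPM in TGFb1 + DMSO, 447, 482 and 481 in CHIR and 171, 180.3 and 182 in DMSO (-2.36 ± 0.055 with TGFb1 and 1.40 ± 0.05 with CHIR). With it were Mamdc2 (-1.64 ± 0.13 and 2.27 ± 0.11), the ETS factor gene Etv1 (-2.14 ± 0.19 and 1.58 ± 0.16), the ephrin receptor gene Epha7 (-3.13 ± 0.15 and 1.41 ± 0.12), the amino acid transporter Slc43a2 (-1.42 ± 0.13 and 1.37 ± 0.12), Olfm1 (-1.35 ± 0.13 and 1.84 ± 0.11) and Prtg (-1.56 ± 0.14 and 1.27 ± 0.12). The 2 comparisons share the DMSO libraries, so a DMSO level that erred to one side would move both.

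Other genes changed by both signals against DMSO did not separate them, in the sense that the 95% interval of the log2 fold change between the signals lay inside -0.5 to 0.5. Dock5, an activator of Rac, read 80.4, 74.7 and 88.3 CPM in TGFb1 + DMSO, 85.7, 86.4 and 83.3 in CHIR and 33.8, 34.1 and 33.2 in DMSO, with an interval of -0.19 to 0.05. Pdlim2, an adaptor of the actin cytoskeleton, read 26.5, 25.8 and 27.9 CPM in TGFb1 + DMSO, 25.7, 24.5 and 29.7 in CHIR and 95.5, 88.4 and 88.2 in DMSO, with an interval of -0.15 to 0.17. In both, the treated libraries overlapped and all lay on one side of DMSO. Raised alike were also C77080 (59.9 ± 3.99, 56 ± 4.04 and 19.7 ± 1.4 CPM), Nrep (261 ± 13.9, 266 ± 6.55 and 108 ± 4.56 CPM), A4galt, Prune2, Camk2n1, Pde1b and Gcnt4, and lowered alike Shroom3 (9.99 ± 1.39, 10.7 ± 0.555 and 45.6 ± 3.75 CPM), Epha2 (12.5 ± 2.01, 15.2 ± 0.709 and 43.5 ± 1.98 CPM), Atg16l2, Taf7, Smoc2, Wwc1 and Nrbp2. Of these 16 genes, Prune2 (-0.38 ± 0.053), Camk2n1 (0.36 ± 0.051), Epha2 (-0.29 ± 0.10) and A4galt (-0.25 ± 0.11) still passed the test between the signals. Against TGFb1 without the solvent label, CHIR was the lower for Gcnt4 (0.43 on the log2 scale, adjusted p = 6.18e-07), Smoc2 (0.34, adjusted p = 0.00455) and Pdlim2 (0.34, adjusted p = 0.000217), while Epha2 (adjusted p = 0.228) and A4galt (adjusted p = 0.182) no longer passed. Epha2 also did not pass without TGFb1 + DMSO replicate 2 (adjusted p = 0.203). A4galt did not pass with scaling by library size only (adjusted p = 0.0513), with mitochondrial and rRNA genes left out (0.0549), or without TGFb1 + DMSO replicate 2 or 3 or CHIR replicate 1 or 3 (0.0966 to 0.221). Without TGFb1 + DMSO replicate 1, Wwc1 (0.34 on the log2 scale, adjusted p = 0.0336) and Nrbp2 (0.23, adjusted p = 0.0431) did pass.

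**Figure D5:**
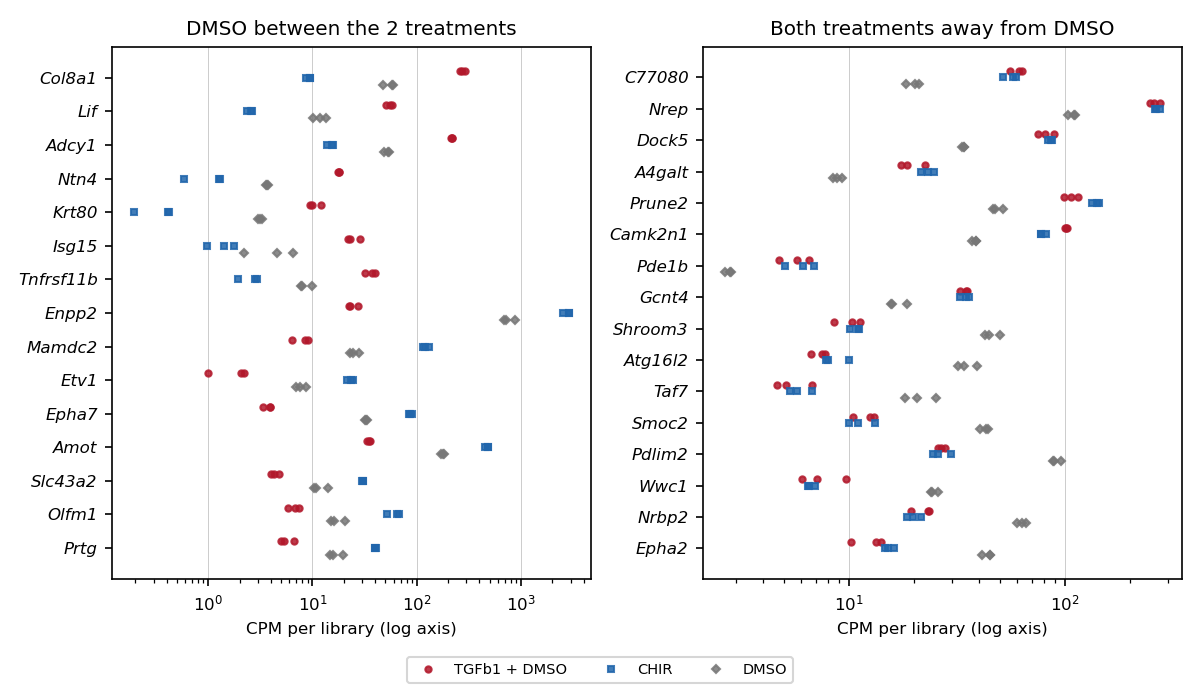
CPM per library on a log axis for genes with DMSO between the treatments (left, 15 genes) and for genes moved away from DMSO by both (right, 16 genes). On the left the red and blue points flank the grey DMSO points, and on the right they lie together on one side of them.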

How the data were processed

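Stranded total RNA-seq libraries (Qiagen RNeasy extraction and an Illumina TruSeq kit, per the labels' protocols) were deposited by the authors as a table of raw counts per gene, 52636 genes by 21 libraries; all 21 single-library tables equalled their column. No source used here names the aligner, the counter or the strand setting. The submitters' processing notes list GRCh38 and GRCm38 without a role. Mouse gene IDs were named and placed with GENCODE M21 on GRCm38 (52489 matched, 147 did not). Gapdh held 45 counts in all, so genes with near-identical copies may be undercounted.

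Counts were tested with edgeR 4.0.16 (R 4.3.3): filterByExpr, TMM factors, 1 coefficient per group over all 21 libraries, robust quasi-likelihood tests, and Benjamini-Hochberg adjustment over 16197 genes (threshold 0.05). The common dispersion corresponded to a coefficient of variation of 0.0581, and replicate libraries differed by more than counting noise. CPM used TMM-scaled totals. For a gene at 0 in a group, the fold is a lower bound computed from 3 counts in that group. Each SE was worked back from the test, as the absolute log2 fold change over the square root of its F statistic. The 95% intervals were built from this SE, and bounds cover counting error only.

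Named were the 15 genes per direction with the largest log2 fold change (mean of at least 2 log2 CPM, no overlap, no predicted name), 8 per direction on opposite sides of DMSO, 8 per direction moved alike, up to 5 members per list with the largest change, 21 genes fixed by name, and members needed to account for a list; 3 of these genes are not reported here. Genes and the 29 lists were chosen with earlier results of these data known; no set test was run. On simulated counts of this comparison (15578 genes), 63 of 80 genes changed 1.5-fold, 57 of 60 changed 2-fold and 58 of 60 changed 4-fold were recovered, with 7 others called. Alternatives were DESeq2 1.42.0, limma 3.58.1 voom, other scalings and filters, a 2-fold minimum, TGFb1 without the solvent label, and each replicate left out.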

Additional observations from a re-analysis of the deposited data

How the results depend on the processing

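No paired analysis was possible because replicates were only numbered in accession order. Requiring a 2-fold change left 1882 genes higher and 2337 lower for TGFb1 + DMSO against CHIR, 1307 and 2224 for TGFb1 + DMSO against DMSO, 436 and 986 for CHIR against DMSO, and 216 list members higher and 139 lower. The other 116 counts of genes and list members, over all alternatives, stayed within 1.5 times of those reported. DESeq2 called 10693 genes, of which 10428 were shared with the edgeR calls (97.5% of each), and limma voom 10755, of which 10543 were shared (98.6% of the edgeR calls, 98.03% of its own). With TGFb1 without the solvent label in place of TGFb1 + DMSO, 10985 genes were called and 9833 were shared (91.9% and 89.5%), 9828 of them in the same direction. Across the values of named genes in 3 comparisons, 9204 kept their direction and side of the threshold, 93 lost and 39 gained significance, and 2 reversed: Gcnt4 at 0.43 with TGFb1 without the solvent label, and Lgr5 in CHIR against DMSO at 4.36 without DMSO replicate 2, the single DMSO library with Lgr5 counts (-1.15 to 4.36 over the libraries left out). Of list medians, 390 moved by at most 0.1 (log2), 41 moved by more and 3 reversed. Cytokines and growth factors reversed to 0.16 with only the compared groups in the fit. With TGFb1 without the solvent label, NF-kB genes reversed to 0.0625 and Notch genes to 0.102. No scaling shifted the median of all genes by more than 0.07 (log2). The cause of these changes was not tested. With 3 against 3 libraries, an exact permutation test cannot go below 0.1, so single values rest on the spread that edgeR shares between genes.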
